A study of Drosophila melanogaster with 48 samples.

Results

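Toll-6 and Tollo encode Toll family receptors that, together with 18w, are transcribed in transverse stripes along the head-to-tail axis of the early Drosophila embryo. The 3 genes were chosen by symbol, and each symbol was looked up in the FlyBase annotation to find its row in the count table. Toll-6 (FBgn0036494) and Tollo (FBgn0029114, also called Toll-8) were found, so 2 of the 17481 genes in the table are described. The remaining gene, 18w, was not analysed here.

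Expression was measured by RNA-Seq in single embryos of Drosophila melanogaster from 8 lines, 4 collected in Siavonga, Zambia (ZI050, ZI094, ZI160 and ZI470) and 4 from the Drosophila Genetic Reference Panel of Raleigh, North Carolina (RAL307, RAL357, RAL360 and RAL517). At late stage 5 and at stage 2, 3 embryos of each line were sequenced, which gives 48 libraries. Stage 5 embryos had finished forming cells and had not begun gastrulation, and were XY. Stage 2 embryos were taken before the pole cells were visible, and their sex was not determined. All lines were wild-derived, started from single females and then inbred, the Raleigh lines for more generations than the stated minimum for the Zambia lines. Embryos of a line are thus close relatives but need not be identical, and mothers were 3 to 10 days old. No treatment, transgene or mutation was used. The 3 RAL357 embryos of each stage carry no distinct replicate numbers in the table and are called a, b and c.

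As background, cells of the germ band exchange neighbours along the dorsal-ventral axis after stage 5, which lengthens the body axis. The pair-rule transcription factors Even-skipped and Runt set the striped transcription of these receptors, and cells that carry different sets of receptors recruit myosin to the border between them. Before that time, the embryo depends on RNA that the mother loaded into the egg, and its own genome becomes active during the maternal to zygotic transition between the stages sampled here.

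Both genes lie on the same strand of chromosome arm 3L. In the BDGP6.54 annotation, Tollo spans 15235619 to 15242832 on the plus strand as 1 exon of 7214 bases, which holds a coding sequence of 4038 bases and a 3′ UTR of 2671 bases. Toll-6 spans 15336692 to 15344315 on the plus strand. Its 3 annotated transcripts have 1 exon each and share a coding sequence of 4542 bases, and their 3′ UTRs are 439, 668 and 2546 bases long. The genes are 93.9 kb apart, and no other annotated gene overlaps either of them (0 for each), so their reads have no annotated antisense partner.

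Total counts were between 25090803 and 30783589 in 47 of the libraries. RAL360 replicate 3 of stage 5 held 340746 counts, so 1 count there equals 2.93 CPM, the count scaled to library size. Some values of RAL360 and of the comparisons that include that embryo are given with and without it, and the others include it. Levels are CPM scaled by edgeR's TMM factors over all 48 embryos. The stage labels were checked against marker genes: osk, a maternal gene of the posterior pole, was at 2.94 to 11.9 CPM in stage 5 embryos, against 788 to 1402 CPM in stage 2 embryos. The zygotic mesoderm gene twi was at 272 to 389 CPM at stage 5, against 0.191 to 0.926 CPM at stage 2. Of 6 genes that mark older tissues, 5 (repo, Mhc, Act88F, ninaE and Yp1) did not exceed 1.18 CPM in any embryo. The neuronal gene elav was at 53.8 to 246 CPM at stage 5, against 0.0931 to 0.865 CPM at stage 2, and its part in the results was not tested.

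The first question was how far the level of each receptor gene changed across the maternal to zygotic transition. Toll-6 was nearly absent at stage 2 and present in every stage 5 embryo. Tollo was already present at stage 2 in all 8 lines and was higher at stage 5 in all of them. In the comparison across all genes, 92.1% of 10193 genes tested changed and 54.6% were higher at stage 5 at an adjusted p under 0.01 (edgeR's quasi-likelihood test with Benjamini-Hochberg adjustment), which is the background for the call of both genes. In whole embryos, more cells that express a gene and more RNA per cell cannot be told apart.

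Toll-6 had a lowest, median and highest level of 20.5, 40.9 and 113 CPM in the 24 stage 5 embryos, against 0, 0.0641 and 0.278 CPM in the 24 stage 2 embryos. The lowest stage 5 value comes from the smallest library, where 7 counts give an exact 95% Poisson interval of 8.24 to 42.2 CPM, and the next lowest was 25.3 CPM. At stage 2 the gene had 0 to 9 counts per embryo and 61 counts over all 24, which is 0.0809 CPM with an exact 95% Poisson interval of 0.0619 to 0.104 CPM. Such intervals cover counting error only. The stages did not overlap in any line. The log2 fold change of stage 5 over stage 2 was 9.16 (SE 0.20, edgeR adjusted p = 4.3e-33), and it was between 8.11 and 9.97 in the single lines.

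Tollo had a lowest, median and highest level of 93.7, 383 and 662 CPM at stage 5, against 13.5, 73.8 and 179 CPM at stage 2. The stages overlapped across lines, since RAL360 embryos of stage 5, at 93.7 to 166 CPM, lay below the highest RAL357 embryo of stage 2, at 179 CPM. Within a line they did not overlap in any of the 8 lines. The log2 fold change was 2.40 (SE 0.10, edgeR adjusted p = 2.9e-23).

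**Figure D1:**
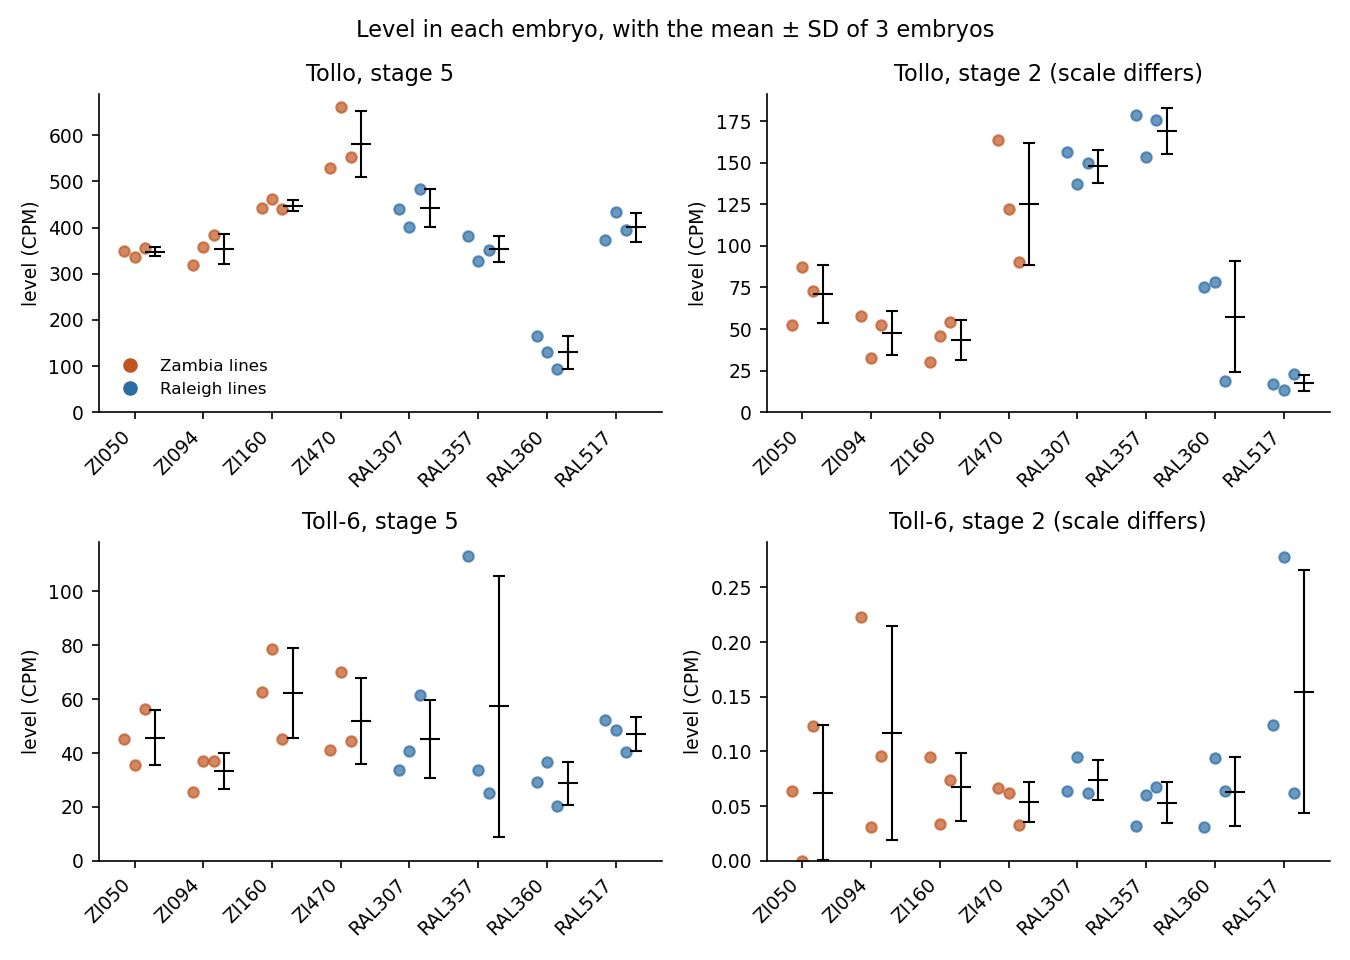
Level of Tollo (top) and Toll-6 (bottom) in CPM in each embryo of stage 5 (left) and stage 2 (right), by line; points are embryos, and the black mark and bar are the mean and SD of 3 embryos. Vertical scales differ between panels: Tollo reaches 662 CPM at stage 5 and 179 CPM at stage 2, and Toll-6 reaches 113 CPM at stage 5 and 0.278 CPM at stage 2.

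The size of the Tollo change depended on the line. RAL517 changed most, with 373, 433 and 395 CPM at stage 5, against 16.8, 13.5 and 23 CPM at stage 2. Its log2 fold change was 4.49 (SE 0.32), where 46.4% of genes were higher at stage 5 in that line. RAL357 changed least, with 382, 328 and 350.4 CPM at stage 5, against 179, 153 and 176 CPM at stage 2, and a log2 fold change of 1.06 (SE 0.28). All 8 lines passed the threshold for Tollo (edgeR adjusted p from 1.1e-15 to 0.00067), while 45.9 to 48.1% of genes were higher at stage 5 in a single line. The 4 Zambia lines had log2 fold changes of 2.21 to 3.36. RAL307, RAL357 and RAL360 lay below all of these, at 1.06 to 1.58, and RAL517 lay above them. A test of whether the change differs among the 8 lines was added after the values were seen. It passed for Tollo (edgeR adjusted p = 2.6e-08) and did not pass for Toll-6 (edgeR adjusted p = 0.77). For Toll-6 it could show only a large difference, since the gene had 5 to 15 counts per line at stage 2. The SE of the change in a line was 0.52 to 0.60 for Toll-6, against 0.28 to 0.32 for Tollo. In that test 46.1% of genes were called, so a change that differs among lines was common in the table.

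**Figure D2:**
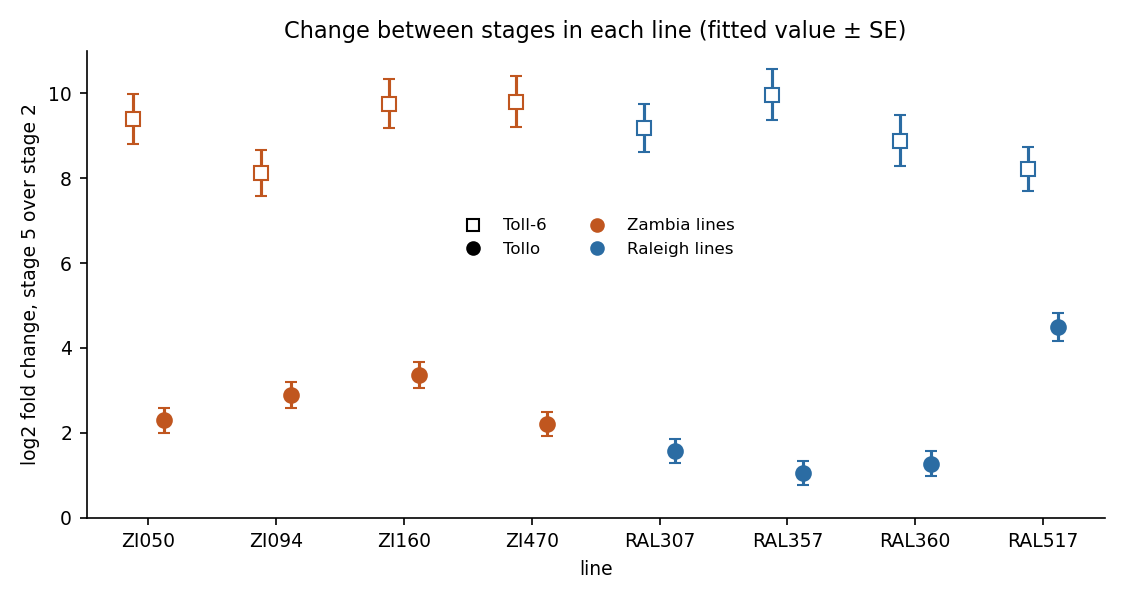
Fitted log2 fold change of stage 5 over stage 2 in each line, with its SE as bars; open squares are Toll-6 and filled circles are Tollo. Toll-6 lies between 8.11 and 9.97 in all lines, and Tollo ranges from 1.06 in RAL357 to 4.49 in RAL517. The Toll-6 values rest on 5 to 15 stage 2 counts per line.

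At stage 5, Tollo was the more abundant of the pair in every line. Per kilobase of exon, the mean of the 8 line means was 52.9 CPM for Tollo and 6.09 CPM for Toll-6. The ratio of Tollo to Toll-6 per kilobase was 8.66 ± 2.41 (SD over 8 lines), and it ranged from 4.78 in RAL360 to 11.8 in ZI470. For Toll-6 this takes 7624 bases, the length of its longest transcript. Its other transcripts have 5517 and 5746 bases, with which the ratio would be smaller, and which of them were present was not tested. The smallest ratio in a single embryo was 3.57, in RAL357 a, so no embryo of stage 5 had more Toll-6 than Tollo per kilobase.

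The next question was whether the populations differ. At stage 5, Tollo had a lowest, median and highest level of 320 CPM, 411 CPM and 662 CPM in the 12 Zambia embryos, against 93.7, 378 and 484 CPM in the 12 Raleigh embryos. The ranges overlapped. The log2 difference of Zambia over Raleigh was 0.37 (SE 0.20, edgeR adjusted p = 0.18), which did not pass, and it was 0.29 without the smallest library. Toll-6 was at 25.5, 44.8 and 78.7 CPM in Zambia embryos, against 20.5, 38.4 and 113 CPM in Raleigh embryos, with a log2 difference of 0.08 (SE 0.22, edgeR adjusted p = 0.81). Its sign turned to -0.04 with total counts as the only scaling, so no direction is given, and it was 0.05 without the smallest library. In this comparison 13.3% of 10000 genes were called, but embryos of a line are relatives, and 1 gene remained when counts were summed over the embryos of each line.

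At stage 2, Tollo had a lowest, median and highest level of 30.4, 56.1 and 163 CPM in Zambia embryos, against 13.5, 108 and 179 CPM in Raleigh embryos. The log2 difference was -0.45 (SE 0.41, edgeR adjusted p = 0.49), where 6.75% of 7566 genes were called (2.89% higher and 3.86% lower). Toll-6 was not tested with edgeR at this stage because its counts were too low for the filter. The 8 line means can be split into populations of 4 in 35 ways, and an exact permutation test over these, two-sided, gave p = 0.37 for Tollo and p = 0.49 for Toll-6 at stage 5. The same exact permutation test gave p = 0.89 for Tollo and p = 0.66 for Toll-6 at stage 2, and 0.0286 is the smallest p it can give. Adjusted over these 4 tests, every p was 0.88 or more. At stage 2 the Toll-6 line means were 0.0532 to 0.155 CPM, below the 0.5 CPM added before taking logs. They rest on 5 to 15 counts per line, so for Toll-6 that test could show only a large difference. The change between stages did not pass a test of a difference between populations either. The interaction was 0.82 (SE 0.46) for Tollo, with an edgeR adjusted p of 0.27. It was 0.27 (SE 0.49) for Toll-6, with an edgeR adjusted p of 0.79. In that test 5.57% of genes were called (2.65% with a positive and 2.92% with a negative value). Its terms were stage, population and their interaction, with no line term, so embryos were taken as replicates. The Toll-6 value rests on 28 Zambia and 33 Raleigh counts at stage 2.

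The lines of one population differed more clearly. Tollo passed the test of any difference among the 4 Raleigh lines at stage 5 (edgeR adjusted p = 1.6e-05, where 24% of genes were called) and among the 4 Zambia lines (edgeR adjusted p = 2.3e-05, where 47.0% were called). Toll-6 passed neither, with an edgeR adjusted p of 0.43 among Raleigh lines and 0.032 among Zambia lines. For the Zambia lines Toll-6 did pass with DESeq2's likelihood ratio test (adjusted p = 0.0057) and with no filter on low counts (edgeR adjusted p = 0.0098).

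RAL360 and ZI470 were the extremes of Tollo at stage 5. RAL360 embryos had 166, 129.9 and 93.7 CPM, all below the lowest embryo of every other line, which had 320 CPM. The last of these values comes from the smallest library, where 32 counts give an exact 95% Poisson interval of 64.1 to 132 CPM. Without it, the mean of RAL360 was 148 CPM, against 129.7 ± 36.0 CPM (SD, n = 3) with it. RAL360 differed from each of the 7 other lines, with log2 differences of 1.32 to 2.07 in favour of the other line. ZI470 embryos had 529, 662 and 552 CPM, all above the highest embryo of any other line, which had 484 CPM. ZI470 was higher than ZI050, ZI094, RAL307, RAL357 and RAL517, by 0.40 to 0.75 on the log2 scale, and its difference from ZI160 of 0.38 (SE 0.12) did not pass (edgeR adjusted p = 0.018). In order of the mean, ZI470 was followed by ZI160 (448 CPM), RAL307 (442 CPM), RAL517 (400.3 CPM), RAL357 and ZI094 (353 CPM each), ZI050 (348 CPM) and RAL360. In this order the only neighbours called were ZI050 and RAL360. In all, 12 of 28 pairs of lines were called for Tollo (14 without RAL360 replicate 3), and over the 28 pairs 21.0% of the tests of all genes were called.

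Toll-6 showed no such separation at stage 5. Its line means ran from ZI160 (62.3 ± 16.7 CPM, SD, n = 3) and RAL357 (57.4 ± 48.5 CPM) to ZI094 (33.3 ± 6.73 CPM) and RAL360 (28.7 ± 8.01 CPM, and 32.8 CPM without replicate 3). None of the 28 pairs was called with edgeR, although 3 had an unadjusted p under 0.05. No neighbours in the order were called, and the largest log2 difference of a pair was 0.97. The wide spread of RAL357 came from 1 embryo, with 113 CPM in embryo a, against 33.8 CPM in b and 25.3 CPM in c. Without embryo a, 2 pairs were called. ZI160 lay above RAL357 by 1.08 on the log2 scale (SE 0.29, edgeR adjusted p = 0.0067). The fitted log2 value of ZI094 over ZI160 was -0.92 (SE 0.25, edgeR adjusted p = 0.0079), and with embryo a its SE was 0.39 (edgeR adjusted p = 0.079). All pairs were fitted with 1 estimate of the spread of the gene, which included embryo a. All ZI094 embryos, at most 37.2 CPM, lay below all ZI160 embryos, at least 45.3 CPM.

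At stage 2, Tollo line means covered a wider range than at stage 5. The highest line mean was 4.48 times the lowest at stage 5, against 9.53 times at stage 2, and the difference in range was not tested. RAL357 (169 ± 13.8 CPM, SD, n = 3) and RAL307 (148 ± 9.88 CPM) had the most, and RAL517 had the least (17.8 ± 4.80 CPM). Embryos of RAL307 had 157, 137 and 150.1 CPM, so both of these Raleigh lines lay above every embryo of ZI050, ZI094, ZI160, RAL360 and RAL517. Between them and RAL517 lay ZI470 (125 ± 36.6 CPM), ZI050 (70.9 ± 17.5 CPM), RAL360 (57.5 ± 33.5 CPM), ZI094 (47.5 ± 13.3 CPM) and ZI160 (43.5 ± 12.2 CPM). No neighbours in this order passed the threshold. Within RAL360, replicate 3 had 18.8 CPM and the other embryos 75 and 78.6 CPM, in libraries of ordinary size.

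Tollo passed the test among the 4 Raleigh lines at stage 2 (edgeR adjusted p = 0.00067, where 20.4% of genes were called). It also passed among the 4 Zambia lines (edgeR adjusted p = 0.0070, where 16.8% were called), but in 10 of the 12 fits that left out 1 Zambia embryo its adjusted p was above 0.01, at most 0.018. ZI470 replicate 1, with 163 CPM, stood apart from the other Zambia embryos in the table as a whole: 2655 genes were called among Zambia lines without it and 1272 with it, while the edgeR adjusted p of Tollo was 0.0061 without it. By pairs, 12 of 28 were called for Tollo, where 11.5% of the tests of all genes were called. RAL517 was lower than 6 of the 7 other lines, by 1.45 to 3.23 on the log2 scale, with ZI160 as the exception (edgeR adjusted p = 0.017).

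The order of lines was not the same at the stages. RAL517 had the fourth highest Tollo mean at stage 5 and the lowest at stage 2, and RAL357 had the fifth highest mean at stage 5 and the highest at stage 2. Over the 8 line means on the log2(CPM + 0.5) scale, Tollo at stage 5 and Tollo at stage 2 had r = 0.22 (exact permutation p = 0.63) and rho = 0.048 (exact permutation p = 0.93). Leaving out RAL357 and RAL517, the lines farthest from the median at stage 2, gave r = 0.50 over 6 lines. This relation was added after the values were seen.

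Toll-6 and Tollo, compared with each other over the 8 line means of stage 5, had r = 0.80 (exact permutation p = 0.013) and rho = 0.79 (exact permutation p = 0.028). Adjusted over the 2 relations computed, these were 0.027 and 0.056. The relation rests on few lines: without ZI094 and RAL360, the lines farthest from the Toll-6 median, r was 0.42 over 6 lines, without RAL360 alone it was 0.52, and with RAL360 but not its replicate 3 it was 0.70. Over the 24 embryos r was 0.57, and over the deviations of embryos from their line means it was 0.51, given as a description because embryos of a line are relatives and each point shares its library.

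**Figure D3:**
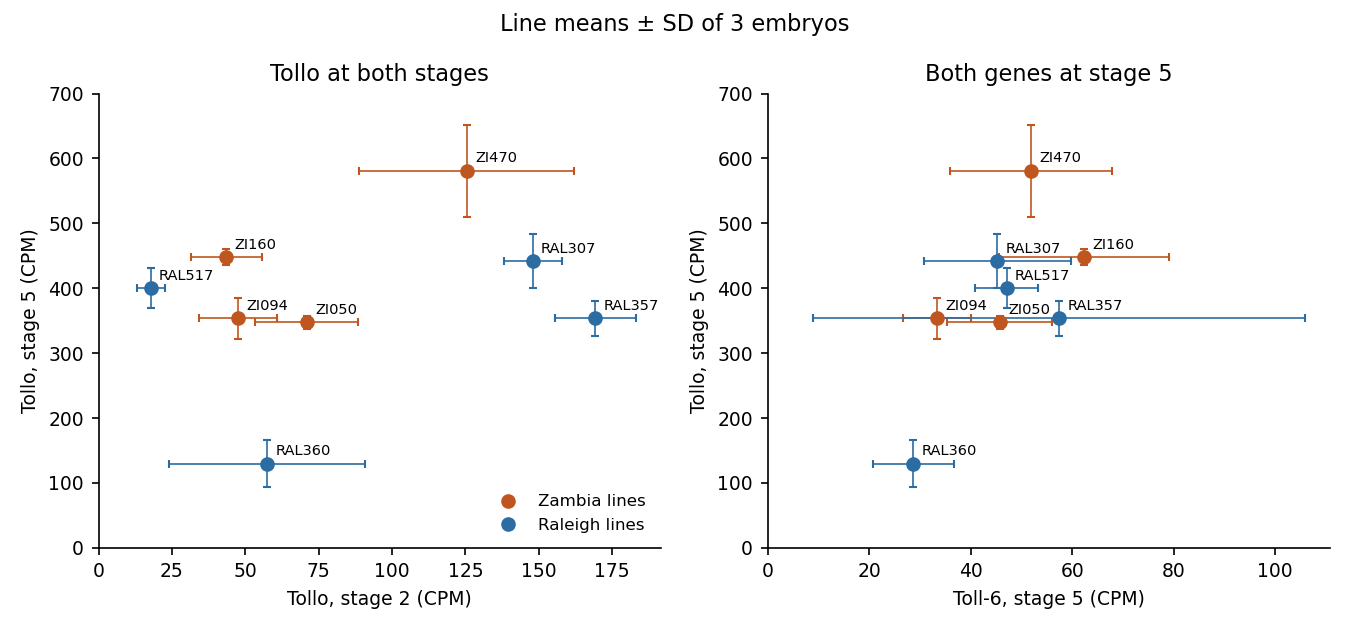
Line means in CPM with the SD of 3 embryos as bars: Tollo at stage 5 against Tollo at stage 2 (left), and Tollo against Toll-6 at stage 5 (right). RAL517 has 400.3 CPM of Tollo at stage 5 and the least of all lines at stage 2 (17.8 CPM), and RAL360 stands low for both genes at stage 5.

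Embryos of a line also differed from each other at stage 5, and Toll-6 did so more than Tollo. The highest embryo of a line had 1.30 to 4.48 times the Toll-6 of the lowest, and 1.05 to 1.77 times the Tollo. The Tollo value of 1.77 was that of RAL360, whose lowest embryo is the smallest library, and the other lines reached 1.25. Embryos staged by shape can differ in age by minutes, so the levels were set beside nullo, Sry-alpha, bnk and slam, early zygotic genes of cell formation. Their summed level ran from 26.8 to 1131 CPM, with a median of 399.5 CPM, over the 24 embryos. It was lowest in RAL357 a, the embryo with the most Toll-6. The embryo with the highest sum had the least Toll-6 of its line in 5 of 8 lines, and the least Tollo in 4 of 8. Conversely, the embryo with the lowest sum had the most Toll-6 of its line in 4 of 8 lines, and the most Tollo in 5 of 8. Whether these counts exceed those of a random order was not tested. Over deviations from line means, r between the sum and Toll-6 was -0.74 for 24 embryos and -0.83 without the smallest library. It was -0.44 without the RAL357 embryos and -0.63 without both. For Tollo r was -0.03 for 24 embryos, and -0.25, 0.19 and -0.05 with the same embryos left out. These values are descriptions, since each point shares its library. Between line means, r with the sum was 0.19 for Toll-6 and 0.24 for Tollo. Line means of the sum were 502 to 738 CPM in Zambia lines, against 164 to 343 CPM in Raleigh lines, and the part of embryo age in the line differences was not tested. With a list of maternal genes (osk, bcd, gcl and pgc), line means had r = 0.71 for Toll-6 and 0.51 for Tollo, while over deviations of embryos r was -0.02 for Toll-6 and 0.23 for Tollo, and -0.18 and -0.23 without the smallest library.

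**Figure D4:**
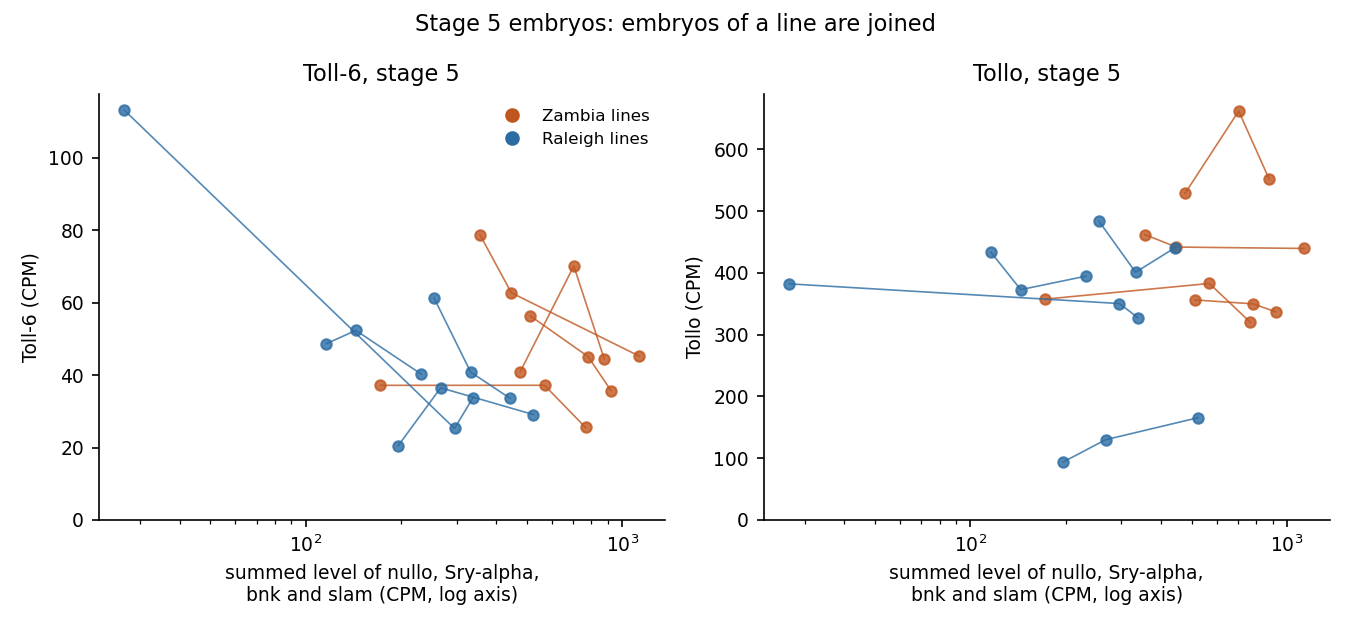
Level of Toll-6 (left) and Tollo (right) in each stage 5 embryo in CPM, against the summed level of 4 early zygotic genes in CPM on a log axis; lines join the embryos of a line. The embryo with the lowest sum, RAL357 a at 26.8 CPM, has the highest Toll-6 level, 113 CPM, while its Tollo level of 382 CPM is within the range of other lines.

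The genes whose pattern over the 24 stage 5 embryos was most like that of each receptor gene were found by Pearson's r of log2(CPM + 0.5) among 10000 genes. For Toll-6 they were Ndc80, a kinetochore protein (r = 0.85), gsb, a segment polarity transcription factor (r = 0.83), Prm, the muscle protein paramyosin (r = 0.76), en, the segment polarity factor Engrailed (r = 0.76), and Lim1, a homeodomain factor (r = 0.75). For Tollo they were YME1L, a mitochondrial protease (r = 0.93), Tango2 (r = 0.93), mth, the receptor Methuselah (r = 0.93), CG32202 (r = 0.92) and CG11307 (r = 0.92). Without RAL360 replicate 3, 2 of each 5 genes were again among the first 5: Ndc80 and gsb for Toll-6, and YME1L and CG32202 for Tollo. In those 23 embryos the gene most like Tollo was elav, the neuronal gene named above (r = 0.92), although over deviations from line means its r with Tollo was -0.53. Tollo was number 165 in the order of likeness to Toll-6. These points share libraries and lines, so the values are descriptions. Prm had a median of only 1.05 CPM at stage 5, below the 2.93 CPM of 1 count in the smallest library. The order was not computed without RAL357 a, the embryo with the most Toll-6.

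Other Toll receptor genes gave a scale for these levels. Per kilobase of exon, Tollo had the highest mean of the receptor genes analysed at stage 5, with 52.9 CPM, against 37.6 CPM for Tl, the receptor of dorsal-ventral patterning and immunity. Tollo was above Tl in 6 of 8 lines, and Tl was above Tollo in ZI050 (88.5 CPM per kilobase, against 48.2 for Tollo) and RAL360 (24.9, against 18 for Tollo). Toll-7 was at 0.817 CPM per kilobase, Toll-9 at 0.524 and Toll-4 at 0.0480, all below the mean of Toll-6. At stage 2 the order was different, with Tl at 153 CPM per kilobase, Tollo at 11.8 and Toll-6 at 0.0106. MstProx (Toll-3) and Tehao (Toll-5) had 0 counts in all 48 embryos.

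Of the 6 other receptor genes, 4 passed the filter, and 3 were called between the stages, where 92.1% of all genes were called. Tl was lower at stage 5, with a lowest, median and highest level of 69.2, 155 and 571 CPM, against 610 CPM, 799 CPM and 933 CPM at stage 2 (log2 fold change -2.24, SE 0.11, edgeR adjusted p = 5.4e-21). Toll-7 and Toll-9 were higher at stage 5 (edgeR adjusted p = 1.0e-22 and 6.4e-19), but had 2 and 8 counts in all stage 2 embryos together, so no fold is given. Toll-4 was not called between the stages and was called between populations at stage 5 (edgeR adjusted p = 0.0043). Its level was 1.10 ± 0.40 CPM in RAL357 (SD, n = 3) and at most 0.106 CPM in the mean of any other line.

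**Figure D5:**
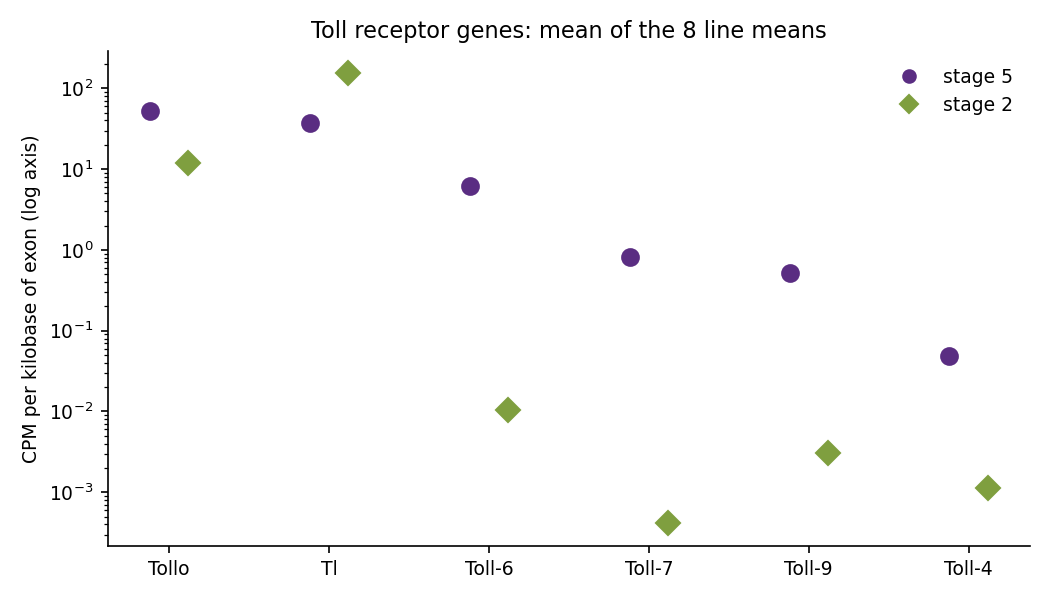
Level of 6 Toll receptor genes per kilobase of exon in CPM on a log axis, as the mean of the 8 line means at stage 5 (circles) and stage 2 (diamonds), in order of the stage 5 level. Tollo, Toll-6, Toll-7, Toll-9 and Toll-4 have the higher mean at stage 5, and Tl has the higher mean at stage 2.

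The pair-rule genes encode transcription factors, of which Even-skipped and Runt set the striped transcription of the receptors. The list holds 10 genes of the pair-rule system and was picked with earlier results of these data known. Of the 9 analysed (h was not analysed here), 8 rose and 1 fell between the stages, where 54.6% of all genes rose and 37.4% fell. Their median log2 fold change was 9.41, against 0.62 over all genes tested. The largest were opa (9.65, SE 0.08), ftz (9.52, SE 0.08), odd (9.51, SE 0.08) and slp2 (9.45, SE 0.14). The slp2 value rests on 30 counts in all stage 2 embryos together, so it is less certain than the others. Toll-6 had 9.16, and trn, a gene of the second list below, had 9.49. At stage 2 all of these genes were at trace levels, with a mean of line means of 0.0398 to 0.924 CPM. A fold of this size is thus not particular to Toll-6 and the pair-rule genes, and the source of the traces was not tested. The gene that fell was ftz-f1, a nuclear receptor supplied by the mother that acts with Ftz (log2 fold change -3.75, SE 0.11). At stage 5, 2 of the 9 were higher in Zambia embryos: run, by 0.29 (SE 0.07, edgeR adjusted p = 0.0044), and prd, by 0.27 (SE 0.06, edgeR adjusted p = 0.0021) on the log2 scale, where 6.01% of genes were higher. Both calls take embryos as replicates, and 1 gene of all tested was called with sums over each line. None of the 8 tested was called between populations at stage 2 with edgeR or DESeq2, and 0 had an unadjusted p under 0.05.

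A second list, picked in the same way, holds 28 genes for partners and effectors of cell intercalation, of which 26 were analysed (zip and mist were not). Between the stages 14 rose, 10 fell and 2 did not pass, which is near the background of 54.6% higher and 37.4% lower, and the median log2 fold change was 0.43, against 0.62 over all genes. The largest changes were those of trn, a leucine-rich repeat protein of the cell surface (9.49, SE 0.10), smog, a receptor of the ligand Fog (4.87, SE 0.22), Pi3K21B, a regulatory subunit of phosphoinositide 3-kinase (-3.33, SE 0.03), and Ten-a, a teneurin (2.83, SE 0.15). Cirl, whose product is an adhesion receptor that binds Tollo, fell. It was at 67.7, 102 and 159 CPM at stage 5 (lowest, median and highest), against 139.6, 209.8 and 251 CPM at stage 2, with a log2 fold change of -1.01 (SE 0.05, edgeR adjusted p = 2.6e-21).

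Between populations at stage 5, 7 of the 26 genes were called, 4 higher and 3 lower in Zambia embryos, where 6.01% of all genes were higher and 7.25% lower. They included smog (-1.08, SE 0.26), Ptp10D, a receptor tyrosine phosphatase (1.01, SE 0.17), Cirl (-0.49, SE 0.11) and fog, the ligand of Smog (-0.49, SE 0.12), all as log2 differences. Cirl was called in this comparison (edgeR adjusted p = 0.0024), with line means of 70.6 to 111 CPM in Zambia lines, against 95.6 to 130.1 CPM in Raleigh lines. These calls rest on embryos as replicates, as for the receptors above. At stage 2 edgeR called none of the 25 tested, where 6.75% of all genes were called. Of the 25, 8 had an unadjusted edgeR p under 0.05. DESeq2 called 2 genes of the list and 804 genes in all, against 511 in all with edgeR. In the test of a stage change that differs between populations, 1 of the 26 was called, Ptp10D (edgeR adjusted p = 0.0087), where 5.57% of all genes were called and 2 genes in all with sums over lines.

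The genes annotated on 3L between both receptor genes had low levels at stage 5. Of the 6 genes annotated there and counted, CG7255 was at a median of 1.04 CPM at stage 5, against 33.1 CPM at stage 2, and its log2 fold change was -4.68 (edgeR adjusted p = 2.1e-27). Best4 reached 2.90 CPM in 1 stage 5 embryo, and Best3 and the non-coding RNA genes CR46213, CR43247 and CR43992 did not exceed 0.152 CPM in any embryo. None of these genes was called as higher at stage 5, and only CG7255 and Best4 passed the filter on low counts.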

How the data were processed

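Single embryos were sequenced after poly-A enrichment as paired-end reads. The authors removed adapters (Cutadapt 1.7), aligned to FlyBase release 6.18 (HISAT2 2.1.0) and deposited unnormalised read counts per gene from featureCounts. The strand setting of the counting is not given in the sources used here. The values therefore measure polyadenylated RNA per embryo relative to the library.

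From these counts, genes were filtered with filterByExpr and tested with edgeR 4.0.16 (quasi-likelihood F-test, TMM, R 4.3.3) over all genes, with Benjamini-Hochberg adjusted p under 0.01 as the threshold. SE is the fold change divided by the root of F. Stages were compared over 16 line-by-stage means, populations with population as the only term, and lines with line means. The interaction was fitted with stage, population and their product, without a line term. Alternatives were DESeq2 1.42.0, other scalings, filters and thresholds, sums over each line, a replicate block and leaving out each embryo. Of the 17481 identifiers, 17343 matched the annotation. Over the 48 pairs of embryos of a group, no pair agreed within sampling noise (lowest chi-square per degree of freedom 3.68). Totals were 25090803 to 30783589 counts in 47 libraries, so 3 counts equal 0.0903 to 0.131 CPM there and 8.78 CPM in the smallest one. Fits were tested on simulated data. The test of the stage change among lines and the Tollo relation between stages were added after the values were seen.

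Embryos were collected from many mothers. The genes, lists and tests were chosen with earlier results of these data known. Named genes were the receptors, all other Toll receptor genes, up to 4 genes of each list with the largest fold change among those called, the 5 genes most like each receptor gene, and markers. The genes ftz-f1 and CG7255 and the rest of the interval, as well as Cirl between the stages, were named after their values were seen. 18w, nos, h, zip and mist were not analysed here.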

Additional observations from a re-analysis of the deposited data

Results flagged for a closer look

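The change of Tollo between stages differed among the 8 lines by an F-test of the difference itself (edgeR adjusted p = 2.6e-08). The change was a log2 value of 4.49 (SE 0.32) in RAL517 and 1.06 (SE 0.28) in RAL357, and 46.1% of all genes passed the same test.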

How the results depend on the processing

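The stage calls of Toll-6 and Tollo kept their direction and side of the threshold under all alternatives tried, with log2 fold changes of 8.92 to 9.34 and 2.15 to 2.57 over settings. So did the calls of Tollo among the lines of a population, except that among Zambia lines at stage 2. There the edgeR adjusted p was 0.018 with a replicate block (0.0070 with RAL357 left out alone) and 0.0060 to 0.018 when 1 embryo was left out. Toll-6 among Zambia lines at stage 5 passed with no filter (0.0098), at a threshold of 0.05 (0.032) and with DESeq2's test (0.0057). The Toll-6 population difference at stage 5 was -0.040 with total counts alone and -0.0032 to 0.30 with 1 embryo left out. Its line-mean difference at stage 2 was -0.057 to 0.0063, and its interaction -0.039 to 0.54, in such fits.

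The replicate block also leaves out the unnumbered RAL357 embryos, so each of its counts is followed by the count with RAL357 left out and no block, a fit added after the values were seen. Counts of genes moved as follows. Between populations at stage 5, 874 genes were called with the 5 CPM filter, 721 with the replicate block (903 with RAL357 left out alone), 2659 at a threshold of 0.05 and 1 with sums over lines. At stage 2 these were 331 with the block (424), 1217 at 0.05, 804 with DESeq2 and, with edgeR on sums over lines, 0 (815 at an unadjusted p under 0.05). The interaction had 344 calls with the block (390), 1241 at 0.05 and 2 with sums over lines. Among Raleigh lines, 4487 genes passed at 0.05 at stage 5; at stage 2, 1022 passed with the block (1011), 2956 at 0.05, 2630 with DESeq2 and 1001 to 1517 with 1 embryo left out. Among Zambia lines at stage 2, 2551 passed at 0.05, 2226 with DESeq2 and 624 to 2655 with 1 embryo left out. The cause of these changes was not tested.

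Of 28 pairs at stage 5, 19 were called for Tollo at 0.05. For Toll-6, 0 to 2 were called with 1 embryo left out. Without RAL357 there were 21 pairs. For Toll-6 at stage 5, 1 of them was called both with the replicate block and with RAL357 left out alone. For Tollo at stage 2, 5 were called with the block and 6 with RAL357 left out alone. With all 8 lines fitted, these 21 pairs held 0 calls for Toll-6 at stage 5 and 8 for Tollo at stage 2. Nothing in the labels pairs embryos by number, and same-numbered embryos of different lines had a correlation of deviations over 0.1 in 10 of 63 pairs at stage 5 and 16 of 63 at stage 2, against 20 of 126 and 12 of 126 pairs with different numbers. The smallest library limits RAL360 at stage 5, and Toll-6 at stage 2 is at the limit of depth.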
